A study of Mus musculus with 14 samples.

Results

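Lung tumour nodules that had acquired resistance to mobocertinib were compared with vehicle-treated nodules by RNA sequencing, over the autosomal genes of the mouse. The comparison used 5 of the 14 libraries of the series, 3 from resistant nodules and 2 from vehicle nodules, taken by their labelled treatment. All nodules came from C57BL/6 mice whose labelled genotype was HER2 Exon20YVMA, so the controls carried the same allele. The resistant group was labelled as resistant to mobocertinib given alone, and the labels describe the treatments of the series as long term, without duration or dose. The other libraries were 3 each from nodules treated with mobocertinib (TAK-788), with T-DM1 or with both drugs, and they served only to estimate the spread and as a second point of comparison. The labels give neither the promoter that drives the allele, nor whether it is a human or a mouse sequence, nor the age of the animals, nor how many animals stand behind a group, nor whether resistant nodules were still exposed to drug at collection. Of 55291 gene symbols in the count table, 49005 were autosomal in the annotation and 16989 of those passed the filter on low counts and were tested. The nodules held RNA of several cell types, and in bulk RNA fewer cells of a type and less RNA per cell cannot be told apart. Nkx2-1, the lineage factor of lung epithelium, was present in every library, with 113, 180.3 and 206 CPM in resistant nodules, against 115 and 81.8 CPM in vehicle nodules.

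HER2, encoded by Erbb2, is a receptor tyrosine kinase of the ERBB family that signals as a dimer, often with HER3. The YVMA insertion in exon 20 lies beside the kinase's regulatory helix and keeps the kinase active without ligand. Active ERBB dimers drive the RAS-ERK cascade, whose output genes include feedback inhibitors of the DUSP, Sprouty and SPRED families, and the PI3K-AKT cascade, which holds FOXO factors out of the nucleus. Mobocertinib is a covalent inhibitor of EGFR and HER2 kinases with exon 20 insertions, and T-DM1 is an antibody against HER2 that carries a microtubule poison. Known routes to resistance against such inhibitors include other receptor kinases, reactivated ERK signalling and drug efflux.

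The vehicle libraries stood apart from all others in the length of the messenger RNAs they held, and this touches every value below. Autosomal messenger RNAs shorter than 1 kb took 8.4%, 8.27% and 6.33% of the counts of the 3 resistant libraries, against 22.3% and 28.2% in the 2 vehicle libraries. Those longer than 5 kb took 18.2%, 19.5% and 17.2% in resistant libraries and 6.0% and 4.44% in vehicle libraries. A ribosomal RNA gene, CT010467.1, held between 0.0887% and 0.14% of resistant counts, against 1.88% and 5.32% of vehicle counts. Libraries held between 19344015 and 24863818 counts, so counting error was far below these gaps. In the test of all genes the median log2 fold change ran from −2.03 for the 648 genes under 1 kb to 1.35 for the 3204 genes over 5 kb. Among genes under 1 kb 2.47% rose and 63.0% fell, whereas 54.2% rose and 2.97% fell among genes over 5 kb. A second fit therefore removed, library by library, the trend of counts with transcript length and base composition, after which the class medians lay between −0.24 and 0.12. Against the 9 drug-treated libraries, with no vehicle library in the contrast, the class medians of the resistant group still ran from −0.36 to 0.34. Part of any real difference that goes with length is removed by the correction too, so both values are given; which of them is nearer to the nodules was not tested.

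**Figure D1:**
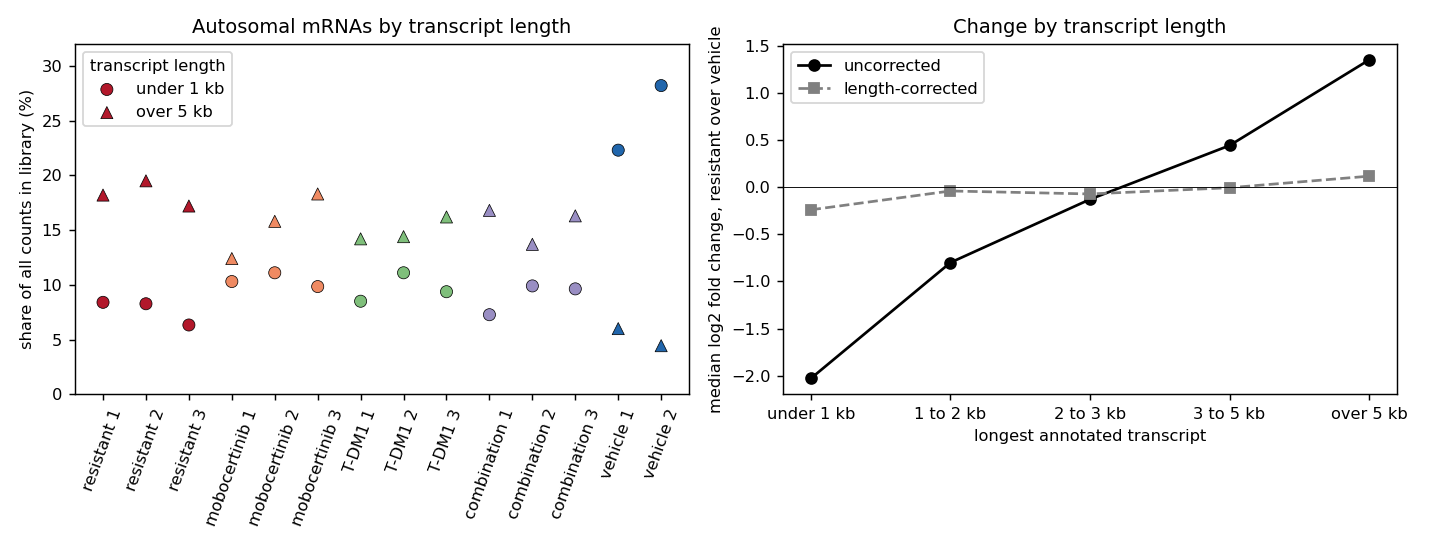
Left, share of each library's counts (%) in autosomal messenger RNAs shorter than 1 kb (circles) and longer than 5 kb (triangles), for resistant, mobocertinib, T-DM1, combination and vehicle libraries; the short class lies between 6.33% and 11.1% in all but the vehicle libraries, which reach 22.3% and 28.2%. Right, median log2 fold change of resistant over vehicle by transcript length class, which runs from −2.03 to 1.35 without correction (black) and from −0.24 to 0.12 with it (grey).

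Across the autosomes 6972 of 16989 genes were called at an adjusted p below 0.05 by edgeR's quasi-likelihood test with Benjamini-Hochberg adjustment, which is 41.0% of those tested. Of them 3759 (22.1%) rose and 3213 (18.9%) fell in resistant relative to vehicle nodules, and upper-quartile scaling turned this split to 3263 higher and 3675 lower. The median log2 fold change of all genes was 0.18. The groups did not overlap in 9240 genes (54.4%), with all resistant libraries above in 4903 (28.9%) and below in 4337 (25.5%). In the length-corrected fit 4550 of 14398 protein-coding genes (31.6%) were called, with 1989 (13.8%) higher and 2561 (17.8%) lower. Of the 6117 uncorrected calls that the corrected fit tested, 3183 were called the same way in both fits and 70 the opposite way, and 1297 genes were called after correction alone. With so large a background share, a list in which 4 members in 10 were called is near the background share. Without vehicle 2 the fit called 4368 genes. A deposited-TPM fit puts all genes on another scale, with a median log2 fold change of 1.33, so a value from TPM is to be read against that shift. Against the mean of the 3 drug-treated groups none of 16989 genes (0.0%) passed by edgeR, with a smallest adjusted p of 0.14, while 2346 genes (13.8%) had an unadjusted p below 0.05 and DESeq2 called 180, of which 96 were higher and 84 lower. Without resistant 3 edgeR called 11 genes there, and without resistant 1 it called 2. Unless stated, values below are CPM, counts divided by a TMM-scaled library total and brought to a common size, errors of log2 fold changes are SE, and the order of libraries is resistant 1, 2 and 3, then vehicle 1 and 2.

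Feedback and transcription genes of the ERK cascade moved in both directions, and most were not called. Of all genes tested 22.1% rose and 18.9% fell. Among 20 ERK output genes 1 rose and 3 fell, with a median log2 fold change of 0.01 (1.51 from TPM), and after length correction 1 rose and 5 fell, with a median of −0.17; upper-quartile scaling put the median at −0.14. Dusp6 (chromosome 10, 99263231 to 99267489, plus strand, mm10), the phosphatase that inactivates ERK in the cytoplasm, had 43.4, 85.4 and 68.5 CPM in resistant nodules, against 217 and 232 CPM in vehicle nodules, a log2 fold change of −1.77 ± 0.27 (adjusted p = 0.00036). Dusp5, its nuclear counterpart, had 7.68, 5.11 and 6.48 CPM in resistant nodules, against 37.9 and 24.8 CPM in vehicle nodules, a log2 fold change of −2.29 ± 0.32 (adjusted p = 0.00021). Etv4, an ETS factor of the PEA3 family induced by ERK, measured 1.31, 8.8 and 12.5 CPM in resistant nodules, against 56.4 and 41.8 CPM in vehicle nodules, a log2 fold change of −2.71 ± 0.67 (adjusted p = 0.0068). In each of these 3 genes every resistant library lay below both vehicle libraries. Spred2, an inhibitor of RAS-ERK signalling, was the member that rose, at 23.4, 37.2 and 25.1 CPM in resistant nodules, against 10.6 and 7.88 CPM in vehicle nodules, a log2 fold change of 1.63 ± 0.34 (adjusted p = 0.0026). Spry1, Spry2, Spry4, Etv5, Egr1 and Fos were not called, with log2 fold changes of −0.03, −0.74, 0.05, −1.78, 1.09 and 0.31. Myc and Ccnd1, growth genes downstream of ERK, did not pass either. Myc had 13.2, 16.6 and 42.4 CPM in resistant nodules, against 25.3 and 33.8 CPM in vehicle nodules, a log2 fold change of −0.30 ± 0.49 (adjusted p = 0.65). Ccnd1, encoding cyclin D1, had 187, 325 and 704 CPM in resistant nodules, against 406 and 218 CPM in vehicle nodules, a log2 fold change of 0.38 ± 0.48 (adjusted p = 0.55), and the groups overlapped in both. Length-corrected log2 fold changes were −2.13 for Dusp6 (adjusted p = 0.00025), −2.34 for Dusp5 (adjusted p = 0.00018), −2.58 for Etv4 (adjusted p = 0.015) and 1.39 for Spred2 (adjusted p = 0.0088). Set beside the drug groups, Dusp6 averaged 65.8 ± 21.1 CPM in resistant nodules, 38.5 ± 7.47 under mobocertinib, 161 ± 19.3 under T-DM1, 48.1 ± 6.54 under the combination and 225 ± 10.8 in vehicle nodules (SD, n = 3 each, 2 for vehicle). Among the other settings, no call was made for Dusp5 and Etv4 from TPM. Another annotated gene shares 22.1% of the exon bases of Dusp5 and 23.4% of the exon bases of Ccnd1, whose counts are uncertain to that extent. On the TPM scale the sign turned, to 0.01 for Dusp6 and 1.12 for Myc.

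**Figure D2:**
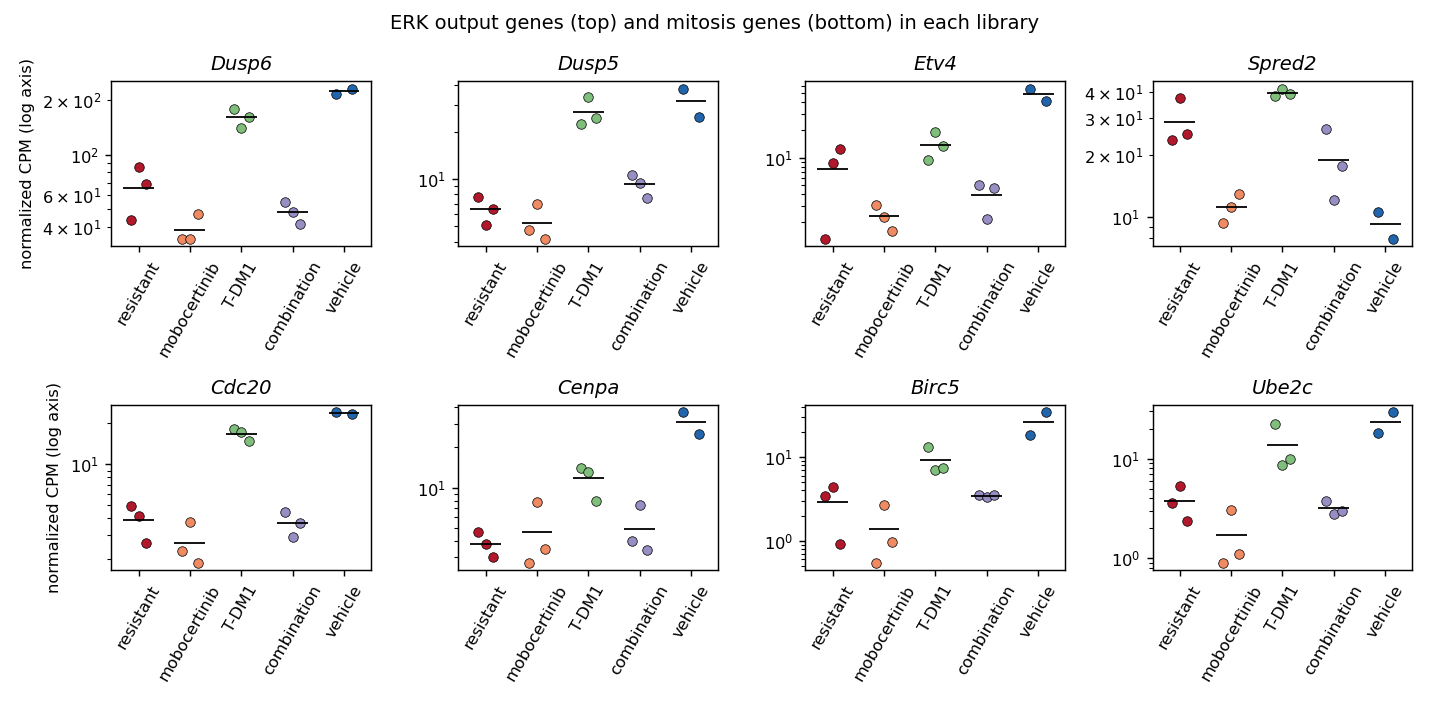
Normalized CPM (log axis) of 4 ERK output genes (top) and 4 mitosis genes (bottom) in each library, by group, with a bar at the group mean. Apart from Spred2, all resistant points lie below all vehicle points, which for Dusp6 means at most 85.4 CPM in resistant nodules, against 217 and 232 CPM in vehicle nodules.

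Many genes of cell division fell in resistant nodules by TMM-scaled counts, and by these no listed one rose. The listed mitosis genes summed to 94, 152 and 59.5 CPM in resistant nodules, against 313 and 273 CPM in vehicle nodules. Without TMM scaling they summed to 116, 160 and 59.8 CPM in resistant nodules, against 212 and 148 CPM in vehicle nodules. The groups overlapped there. The TPM fit called 1 higher and 2 lower. Of 24 mitosis genes 0 rose and 10 fell, with a median log2 fold change of −1.39 (0.17 from TPM), and after length correction 0 rose and 14 fell, with a median of −1.87. Cdc20, the activator of the anaphase-promoting complex, had 4.91, 4.15 and 2.62 CPM in resistant nodules, against 24.2 and 23.3 CPM in vehicle nodules, a log2 fold change of −2.60 ± 0.37 (adjusted p = 0.00023). Cenpa, the histone that marks centromeres, had 4.62, 3.78 and 3.04 CPM in resistant nodules, against 36.6 and 25.2 CPM in vehicle nodules, a log2 fold change of −3.02 ± 0.49 (adjusted p = 0.00052). Both vehicle libraries were several times above every resistant library in these genes. Ube2c, the ubiquitin-conjugating enzyme of that complex, had 3.56, 5.35 and 2.37 CPM in resistant nodules, against 18 and 29.4 CPM in vehicle nodules, a log2 fold change of −2.65 ± 0.57 (adjusted p = 0.003). Birc5, which encodes survivin of the chromosomal passenger complex, had 3.46, 4.44 and 0.926 CPM in resistant nodules, against 18.2 and 34.3 CPM in vehicle nodules, a log2 fold change of −3.15 ± 0.68 (adjusted p = 0.0029). All resistant values lay below all vehicle values in these 4 genes. Mki67, the proliferation marker Ki-67 with a very long transcript, had 13.8, 22.3 and 5.04 CPM in resistant nodules, against 13.8 and 18.4 CPM in vehicle nodules, and its log2 fold change of −0.23 ± 0.65 (adjusted p = 0.79) did not pass, while the corrected value of −2.17 did (adjusted p = 0.016). For the other named genes the corrected log2 fold changes were −2.12 for Cdc20 (adjusted p = 0.0013), −2.29 for Cenpa (adjusted p = 0.0029), −1.24 for Ube2c (adjusted p = 0.095) and −1.70 for Birc5 (adjusted p = 0.057). Other settings gave no call for Cdc20 and Ube2c from TPM. Another annotated gene shares 22.8% of the exon bases of Ube2c, whose counts are uncertain to that extent. From TPM the log2 fold change was 0.72 for Mki67.

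The promoters of 3 of these genes are shown because they carry the CHR element (cell cycle genes homology region), through which the DREAM and B-MYB complexes repress and activate late cell cycle genes. The windows run from 250 bases before to 50 bases after the start (RefSeq, GRCm38.p6), and capitals mark TTTGAA or its reverse complement TTCAAA. Cdc20 lies on the minus strand at chr4:118437294-118437593, Cenpa on the plus strand at chr5:30666636-30666935 and Ube2c on the plus strand at chr2:164769679-164769978.
Cdc20: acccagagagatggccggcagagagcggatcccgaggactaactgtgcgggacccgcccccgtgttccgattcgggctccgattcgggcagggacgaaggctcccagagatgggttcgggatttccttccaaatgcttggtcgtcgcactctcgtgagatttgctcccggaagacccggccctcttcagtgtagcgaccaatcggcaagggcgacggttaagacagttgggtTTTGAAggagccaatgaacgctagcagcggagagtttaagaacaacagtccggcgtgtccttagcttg
Cenpa: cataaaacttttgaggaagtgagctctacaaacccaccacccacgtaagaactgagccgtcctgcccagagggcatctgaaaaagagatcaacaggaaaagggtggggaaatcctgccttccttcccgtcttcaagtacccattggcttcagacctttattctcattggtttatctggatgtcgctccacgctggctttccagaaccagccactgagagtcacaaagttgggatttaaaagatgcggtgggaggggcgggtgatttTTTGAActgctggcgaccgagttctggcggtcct
Ube2c: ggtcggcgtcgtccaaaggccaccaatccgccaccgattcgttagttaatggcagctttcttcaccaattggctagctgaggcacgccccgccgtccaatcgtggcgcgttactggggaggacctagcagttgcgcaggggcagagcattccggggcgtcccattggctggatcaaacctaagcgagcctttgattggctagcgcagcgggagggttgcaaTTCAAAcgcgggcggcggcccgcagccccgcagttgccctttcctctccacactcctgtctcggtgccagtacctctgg
The element began 18 bases before the start of Cdc20, 29 bases before that of Ube2c and 17 bases after that of Cenpa. It was found on either strand in 14 of the 20 mitosis genes that the promoter table holds and in 20.2% of all 27025 symbols in it. Other motifs were searched in other lists without a hit. The CArG box was in 0 of 10 smooth muscle and pericyte genes and 1.81% of all symbols. An ETS motif was in 0 of 12 ERK output genes and 4.31% of all symbols. A match of 6 letters is a description of the window and not a bound site.

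DNA replication genes that passed by TMM-scaled counts also fell, and the direction depended on the scaling. Without TMM scaling the listed genes summed to 318, 271 and 219 CPM in resistant nodules, against 340 and 227 CPM in vehicle nodules. The groups overlapped in these sums. The TPM fit called 8 DNA replication genes higher and 0 lower. Of 24 tested, 0 rose and 12 fell, with a median log2 fold change of −1.12 (0.42 from TPM), and after length correction 0 rose and 16 fell, with a median of −1.27. Ccne1, encoding cyclin E1 of the G1/S step, had 2.11, 1.25 and 1.13 CPM in resistant nodules, against 10.4 and 16.4 CPM in vehicle nodules, a log2 fold change of −3.15 ± 0.61 (adjusted p = 0.0016). Tyms, thymidylate synthase, had 7.64, 9.63 and 9.26 CPM in resistant nodules, against 20.2 and 21 CPM in vehicle nodules, a log2 fold change of −1.22 ± 0.25 (adjusted p = 0.0025). Every resistant library was below both vehicle libraries in both genes. Tk1, thymidine kinase of S phase, had 2.55, 1.99 and 1.75 CPM in resistant nodules, against 18.4 and 17 CPM in vehicle nodules, a log2 fold change of −3.07 ± 0.68 (adjusted p = 0.0036). Rfc4, a subunit of the clamp loader, had 3.6, 6.93 and 4.01 CPM in resistant nodules, against 22.4 and 17.5 CPM in vehicle nodules, a log2 fold change of −2.04 ± 0.40 (adjusted p = 0.0018). The groups were apart in each of these genes. With length correction the log2 fold changes were −3.0 for Ccne1 (adjusted p = 0.0028), −1.66 for Tyms (adjusted p = 0.00054), −2.22 for Tk1 (adjusted p = 0.024) and −0.96 for Rfc4 (adjusted p = 0.04). No call was made for Ccne1, Tk1 and Rfc4 from TPM, nor for Tyms with only the 5 compared libraries in the fit. On the TPM scale the sign turned, to 0.43 for Tyms.

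Erbb2, Erbb3 and Egfr all rose in resistant nodules. Of 15 ERBB receptors, ligands and regulators tested, out of 17 listed, 7 rose and 2 fell, with a median log2 fold change of 0.85, and after length correction 5 rose and 2 fell, with a median of 0.51. Erbb2 (chromosome 11, 98412470 to 98437716, plus strand, mm10) had 288, 689 and 1096 CPM in resistant nodules, against 148 and 142 CPM in vehicle nodules, a log2 fold change of 2.25 ± 0.50 (adjusted p = 0.0035). All resistant libraries exceeded both vehicle libraries, and resistant 3 was the highest and resistant 1 the lowest of them. Erbb3, the kinase-impaired partner of HER2, had 128, 149 and 446 CPM in resistant nodules, against 57.3 and 33 CPM in vehicle nodules, a log2 fold change of 2.42 ± 0.53 (adjusted p = 0.0034). Egfr had 27.1, 23.1 and 8.49 CPM in resistant nodules, against 1.08 and 1.93 CPM in vehicle nodules, a log2 fold change of 3.71 ± 0.72 (adjusted p = 0.0017). Nrg1, a ligand of HER3 and HER4, was near absence in vehicle libraries, with 7.46, 3.45 and 16.4 CPM in resistant nodules, against 0.24 and 0.297 CPM in vehicle nodules, a log2 fold change of 5.06 ± 0.88 (adjusted p = 0.00079). The vehicle values rest on few counts in this gene. Lrig1, a transmembrane protein that promotes degradation of ERBB receptors, had 62.4, 34.4 and 107 CPM in resistant nodules, against 13.4 and 13.1 CPM in vehicle nodules, a log2 fold change of 2.35 ± 0.42 (adjusted p = 0.00093). The groups did not overlap in any of the 5 genes. After length correction the log2 fold changes were 1.33 for Erbb2 (adjusted p = 0.0497), 1.12 for Erbb3 (adjusted p = 0.092), 1.92 for Egfr (adjusted p = 0.045), 4.90 for Nrg1 (adjusted p = 0.0023) and 1.33 for Lrig1 (adjusted p = 0.016). How reads of the mutant HER2 allele were assigned, if it is of human origin, is not stated, and the Erbb2 level may miss part of its transcripts.

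Other receptor kinases through which tumours can bypass HER2 rose in part before length correction, and their calls were near the background share after it. Of all genes tested 22.1% rose before correction, as did 54.2% of messenger RNAs over 5 kb. After correction 13.8% of all genes tested rose. Of 26 bypass receptor kinases and ligands 14 rose and 1 fell, with a median log2 fold change of 1.51, and after length correction 4 rose and 2 fell, with a median of 0.33. Ddr2, a collagen receptor kinase, had 188, 170.2 and 57.2 CPM in resistant nodules, against 13.6 and 4.53 CPM in vehicle nodules, a log2 fold change of 3.92 ± 0.66 (adjusted p = 0.00065). Igf1r, the IGF-1 receptor, had 95.6, 58 and 121 CPM in resistant nodules, against 16.9 and 8.69 CPM in vehicle nodules, a log2 fold change of 2.83 ± 0.55 (adjusted p = 0.0016). Resistant 3 was the lowest of its group in Ddr2 and the highest in Igf1r. Fgfr3 had 105, 61.5 and 102 CPM in resistant nodules, against 20.9 and 22.7 CPM in vehicle nodules, a log2 fold change of 2.03 ± 0.43 (adjusted p = 0.0028). Pdgfrb, a receptor of pericytes and fibroblasts, had 67.7, 37.5 and 37.6 CPM in resistant nodules, against 21.2 and 17 CPM in vehicle nodules, a log2 fold change of 1.31 ± 0.32 (adjusted p = 0.0057). These 4 genes separated the groups. Met, the HGF receptor, had 55.1, 116 and 122 CPM in resistant nodules, against 61.5 and 36.7 CPM in vehicle nodules, a log2 fold change of 0.99 ± 0.33 (adjusted p = 0.029), and the groups overlapped. Axl, a TAM family kinase, had 143, 76.2 and 39.6 CPM in resistant nodules, against 128 and 135 CPM in vehicle nodules, a log2 fold change of −0.61 ± 0.41 (adjusted p = 0.25). The corrected log2 fold changes were 2.37 for Ddr2 (adjusted p = 0.0037), 1.0 for Igf1r (adjusted p = 0.17), 1.30 for Fgfr3 (adjusted p = 0.021), 0.21 for Pdgfrb (adjusted p = 0.57), −0.36 for Met (adjusted p = 0.37) and −1.38 for Axl (adjusted p = 0.02), so the sign of Met turned. The call was lost for Met without resistant 2, resistant 3 or vehicle 2 (adjusted p from 0.07 to 0.16). Under another setting there was no call for Pdgfrb and Met with only the 5 compared libraries in the fit, nor for Met against a 1.5-fold threshold. From TPM the log2 fold change was 0.96 for Axl. Calls among bypass genes numbered 5 higher and 0 lower without vehicle 2.

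Several drug efflux transporters of the ABC family rose against vehicle nodules. Before length correction 22.1% of all genes tested rose, as did 54.2% of messenger RNAs over 5 kb. After it 13.8% of the protein-coding genes tested rose. The listed transporters summed to 277, 290 and 1104.5 CPM in resistant nodules, against 186 and 185 CPM in vehicle nodules. The 9 drug-treated libraries lay between 295 and 440 CPM, above resistant 1 and 2 and below resistant 3. Against the drug groups 0 members were called. Of 8 tested, 4 rose and 0 fell, with a median log2 fold change of 2.06, and after length correction 2 rose and 1 fell, with a median of 1.01. Abcc1, which exports conjugated drugs and is also called MRP1, had 62.2, 33.8 and 117 CPM in resistant nodules, against 5.22 and 2.23 CPM in vehicle nodules, a log2 fold change of 4.24 ± 0.54 (adjusted p = 0.00012). Abcb1a, one of the P-glycoprotein genes of the mouse, had 15.5, 25.4 and 10.9 CPM in resistant nodules, against 5.28 and 3.86 CPM in vehicle nodules, a log2 fold change of 1.91 ± 0.44 (adjusted p = 0.0044). Both separated the groups. Abcc3 had 87.7, 70.8 and 440.1 CPM in resistant nodules, against 44.1 and 42.4 CPM in vehicle nodules, a log2 fold change of 2.21 ± 0.65 (adjusted p = 0.017), and Abcc4 had 28.4, 59.8 and 309.6 CPM in resistant nodules, against 19.3 and 15 CPM in vehicle nodules, a log2 fold change of 2.95 ± 0.80 (adjusted p = 0.011). In these resistant 3 was far above the other libraries. Length-corrected values were 2.81 for Abcc1 (adjusted p = 0.0018), 0.88 for Abcb1a (adjusted p = 0.043), 1.14 for Abcc3 (adjusted p = 0.16) and 1.72 for Abcc4 (adjusted p = 0.11). Calls did not hold for Abcc3 and Abcc4 without vehicle 1 or vehicle 2 (adjusted p from 0.0503 to 0.091). Among the other settings, no call was made for Abcc3 and Abcc4 with only the 5 compared libraries in the fit, nor for Abcc4 by limma-voom. Calls among efflux genes numbered 2 higher and 0 lower without vehicle 1, and 2 higher and 0 lower without vehicle 2.

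**Figure D3:**
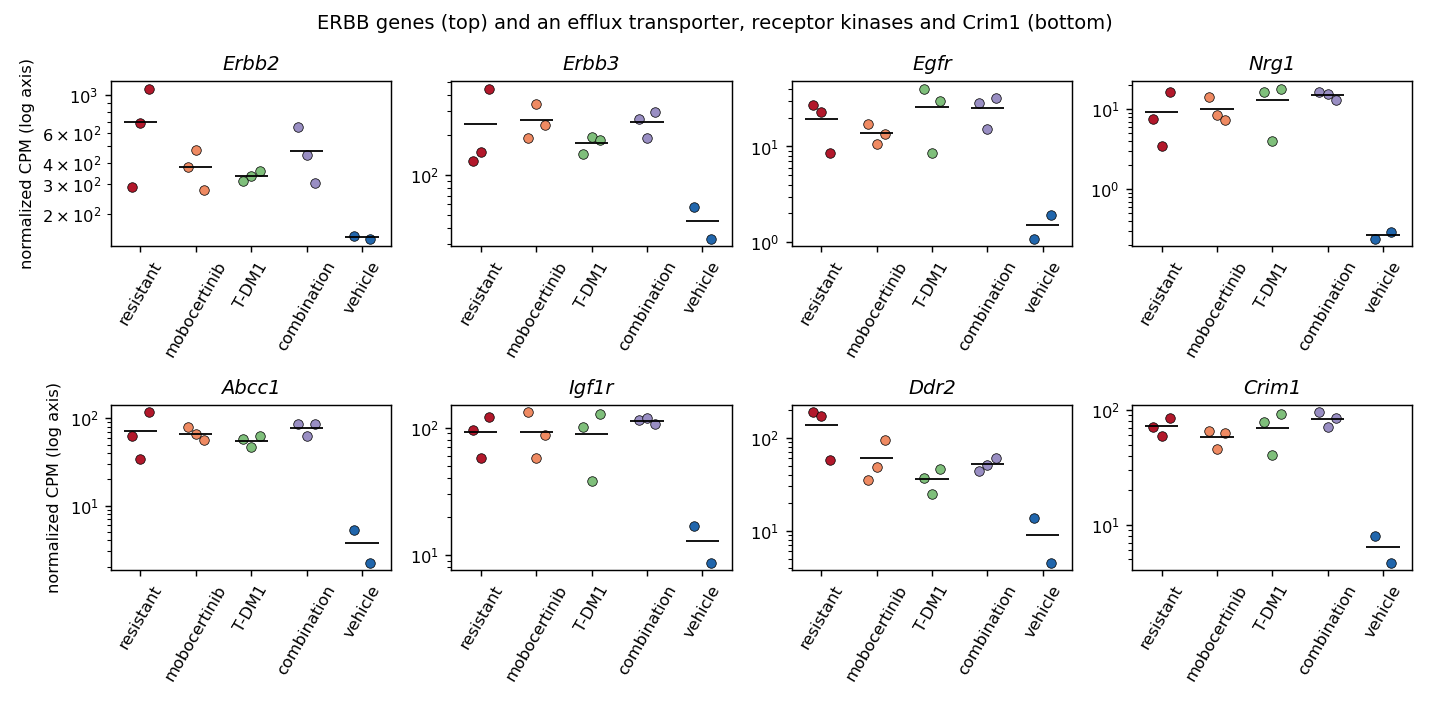
Normalized CPM (log axis) of Erbb2, Erbb3, Egfr and Nrg1 (top) and of Abcc1, Igf1r, Ddr2 and Crim1 (bottom) in each library, by group, with a bar at the group mean. Every resistant point lies above both vehicle points, and the drug-treated groups lie near the resistant one; Erbb2 ranges from 288 to 1096 CPM in resistant nodules, against 142 and 148 CPM in vehicle nodules.

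FOXO factors and the genes they induce when PI3K-AKT signalling is low rose for the most part before length correction. The share of all genes tested that rose was 22.1%, and that of messenger RNAs over 5 kb was 54.2%. With the correction 13.8% of the protein-coding genes tested rose. Of 18 tested, 12 rose and 0 fell, with a median log2 fold change of 1.74, and after length correction 5 rose and 1 fell, with a median of 0.42. Foxo3 had 181, 179 and 256 CPM in resistant nodules, against 32.2 and 39.8 CPM in vehicle nodules, a log2 fold change of 2.51 ± 0.30 (adjusted p = 8.8e-05). Foxo1 had 68.1, 73.2 and 73.5 CPM in resistant nodules, against 22.5 and 12.3 CPM in vehicle nodules, a log2 fold change of 2.04 ± 0.25 (adjusted p = 0.00011). Every resistant library was above both vehicle libraries in both factors. Insr, the insulin receptor and a FOXO target, had 51.7, 77.6 and 76.4 CPM in resistant nodules, against 14 and 13.2 CPM in vehicle nodules, a log2 fold change of 2.33 ± 0.28 (adjusted p = 9.7e-05). Bcl6, a repressor induced by FOXO, had 52.4, 42.3 and 62.9 CPM in resistant nodules, against 13.4 and 7.65 CPM in vehicle nodules, a log2 fold change of 2.31 ± 0.31 (adjusted p = 0.00016). All 4 separated the groups, and the corrected log2 fold changes were 1.04 for Foxo3 (adjusted p = 0.01), 0.36 for Foxo1 (adjusted p = 0.17), 0.58 for Insr (adjusted p = 0.055) and 1.79 for Bcl6 (adjusted p = 0.0007). Genes of the Hippo pathway's YAP and TEAD arm also rose for the most part before length correction. The members not called were Ccn1, Ccn2, Tead2, Ankrd1, Wwc1 and F3. Their log2 fold changes were −0.29, −0.41, −0.19, 1.16, 1.21 and 1.86. Of 17 of them 11 rose and 0 fell, with a median log2 fold change of 1.48, and after length correction 7 rose and 0 fell, with a median of 0.70. Crim1, a transmembrane regulator of BMP ligands and a YAP target, had 71.4, 59.6 and 84.6 CPM in resistant nodules, against 8.04 and 4.68 CPM in vehicle nodules, a log2 fold change of 3.49 ± 0.40 (adjusted p = 7.6e-05). Tead1, a DNA-binding partner of YAP, had 64.4, 133 and 57.6 CPM in resistant nodules, against 11.9 and 2.15 CPM in vehicle nodules, a log2 fold change of 3.59 ± 0.63 (adjusted p = 0.0009). Resistant 2 stood highest in Tead1. Yap1 itself had 125, 121 and 130.2 CPM in resistant nodules, against 49.8 and 40.1 CPM in vehicle nodules, a log2 fold change of 1.48 ± 0.24 (adjusted p = 0.00047). Wwc2, a relative of KIBRA upstream in the pathway, had 84.1, 90.5 and 116 CPM in resistant nodules, against 26.5 and 23.8 CPM in vehicle nodules, a log2 fold change of 1.94 ± 0.25 (adjusted p = 0.00013). Corrected, they stood at 2.18 for Crim1 (adjusted p = 0.00088), 1.87 for Tead1 (adjusted p = 0.0063), 0.70 for Yap1 (adjusted p = 0.015) and 0.21 for Wwc2 (adjusted p = 0.49).

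Genes of the BCL2 family, which set the threshold of mitochondrial apoptosis, divided evenly. Of 15 tested, 5 rose and 5 fell, with a median log2 fold change of −0.26 (1.31 from TPM), and after length correction 1 rose and 3 fell, with a median of −0.16. Bad, a BH3-only gene held in check by AKT, had 34.7, 23 and 41.2 CPM in resistant nodules, against 296 and 248 CPM in vehicle nodules, a log2 fold change of −3.04 ± 0.32 (adjusted p = 6e-05). Bok, a BAX relative, had 18, 5.11 and 16 CPM in resistant nodules, against 67.9 and 86.8 CPM in vehicle nodules, a log2 fold change of −2.57 ± 0.50 (adjusted p = 0.0016). Every resistant value was well below both vehicle values. Bax, an effector that permeabilizes mitochondria, had 45.8, 45.7 and 76.9 CPM in resistant nodules, against 180.1 and 229 CPM in vehicle nodules, a log2 fold change of −1.87 ± 0.31 (adjusted p = 0.00064). Bcl2l2, which encodes the protective protein BCL-W, rose, with 65.4, 66.3 and 76.5 CPM in resistant nodules, against 27.6 and 13.7 CPM in vehicle nodules, a log2 fold change of 1.75 ± 0.32 (adjusted p = 0.001). The groups were apart in all 4, and the corrected values were −2.26 for Bad (adjusted p = 0.00013), −1.88 for Bok (adjusted p = 0.0021), −0.16 for Bax (adjusted p = 0.61) and 1.26 for Bcl2l2 (adjusted p = 0.005). Of 15 p53 target genes 1 rose and 1 fell, with a median log2 fold change of −0.23 (1.46 from TPM), and after length correction 0 rose and 0 fell, with a median of −0.38. Phlda3, an AKT inhibitor induced by p53, had 61.2, 27.3 and 93 CPM in resistant nodules, against 135 and 247 CPM in vehicle nodules, a log2 fold change of −1.66 ± 0.49 (adjusted p = 0.016). By leaving out 1 library, the call was lost for Phlda3 without vehicle 2 (adjusted p = 0.22). Other settings gave no call for Bok and Phlda3 from TPM, nor for Phlda3 with only the 5 compared libraries in the fit. Another annotated gene shares 20.5% of the exon bases of Bad, whose counts are uncertain to that extent. On the TPM scale the sign turned, to 0.09 for Bax. Calls among BCL2 family genes numbered 3 higher and 3 lower without vehicle 2. Calls among p53 target genes numbered 3 higher and 1 lower without resistant 1, 0 higher and 1 lower without vehicle 1, and 0 without vehicle 2.

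Among stress responses, 4 heat shock and 4 ATF4 genes fell by TMM-scaled counts and 1 of each list rose, and the antioxidant program showed 1 call. Of all genes tested 18.9% fell, and the share of ATF4 genes that fell was near this. Without TMM scaling the heat shock genes summed to 3914, 4276 and 4565 CPM in resistant nodules, above the 3276 and 2627 CPM of vehicle nodules. The TPM fit called 8 heat shock genes higher and 1 lower. Of 12 heat shock genes 1 rose and 4 fell, with a median log2 fold change of −0.71 (1.5 from TPM), and after length correction 2 rose and 6 fell, with a median of −1.10. Hspe1, the mitochondrial co-chaperonin, had 52.3, 110.5 and 43.5 CPM in resistant nodules, against 706 and 645 CPM in vehicle nodules, a log2 fold change of −3.30 ± 0.44 (adjusted p = 0.00016). Dnaja1, a cytosolic HSP70 co-chaperone, had 49.1, 89.9 and 58.8 CPM in resistant nodules, against 129 and 120.3 CPM in vehicle nodules, a log2 fold change of −0.92 ± 0.27 (adjusted p = 0.018). Bag3, another co-chaperone, rose, with 67.8, 53.8 and 105 CPM in resistant nodules, against 44.5 and 29.8 CPM in vehicle nodules, a log2 fold change of 1.02 ± 0.29 (adjusted p = 0.014). Of 17 NRF2 genes 1 rose and 0 fell, with a median log2 fold change of −0.03 (1.63 from TPM), and after length correction 0 rose and 0 fell, with a median of −0.29, the call being Gclc, the catalytic subunit of glutathione synthesis. Of 18 ATF4 and unfolded protein response genes 1 rose and 4 fell, with a median log2 fold change of 0.03 and −0.12 with upper-quartile scaling, and after length correction 1 rose and 3 fell, with a median of 0.22. Atf3, a stress-induced factor downstream of ATF4, had 6.11, 5.02 and 5.1 CPM in resistant nodules, against 44.5 and 36.3 CPM in vehicle nodules, a log2 fold change of −2.90 ± 0.48 (adjusted p = 0.00057). Hyou1, a chaperone of the endoplasmic reticulum, had 155, 146 and 274 CPM in resistant nodules, against 82.4 and 78.8 CPM in vehicle nodules, a log2 fold change of 1.25 ± 0.30 (adjusted p = 0.0058). Corrected, the values were −1.58 for Hspe1 (adjusted p = 0.0078), −1.91 for Dnaja1 (adjusted p = 0.00041), 0.90 for Bag3 (adjusted p = 0.011), −2.73 for Atf3 (adjusted p = 0.0012) and 0.38 for Hyou1 (adjusted p = 0.3). The call was lost for Dnaja1 without resistant 1, vehicle 1 or vehicle 2 (adjusted p from 0.062 to 0.072) and for Bag3 without vehicle 2 (adjusted p = 0.11). No call was made for Dnaja1, Bag3 and Hyou1 with only the 5 compared libraries in the fit, Dnaja1 with every counted gene kept, Dnaja1 and Bag3 against a 1.5-fold threshold, nor for Atf3 from TPM. From TPM the log2 fold change was 1.97 for Dnaja1. Calls among heat shock genes numbered 1 higher and 1 lower without resistant 1, 1 higher and 1 lower without vehicle 1, and 0 higher and 1 lower without vehicle 2. Calls among NRF2 genes numbered 0 higher and 2 lower without resistant 3, and 0 without vehicle 1.

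Genes of cytosolic ribosomal proteins and of the respiratory chain, whose transcripts are short, fell for the most part, in the direction of the length skew of the vehicle libraries. Of 46 cytosolic ribosomal protein genes 0 rose and 45 fell, with a median log2 fold change of −2.99, and after length correction 0 rose and 37 fell, with a median of −1.40. The listed genes took 3.07%, 2.59% and 2.83% of the counts of resistant libraries, against 12% and 13.3% of those of vehicle libraries, and between 2.43% and 4.94% in the drug-treated libraries. Rpl26, a protein of the large subunit, had 422, 312 and 486 CPM in resistant nodules, against 4454 and 5192 CPM in vehicle nodules, a log2 fold change of −3.57 ± 0.33 (adjusted p = 5.9e-05). Rps13, of the small subunit, had 307, 229 and 348 CPM in resistant nodules, against 3467 and 3992 CPM in vehicle nodules, a log2 fold change of −3.66 ± 0.34 (adjusted p = 5.9e-05). Rpl34 had 153, 55.1 and 149 CPM in resistant nodules, against 5833 and 7806 CPM in vehicle nodules, a log2 fold change of −5.84 ± 0.74 (adjusted p = 0.00012). In these genes each vehicle library was many times above each resistant library. Of 30 nuclear genes of oxidative phosphorylation 1 rose and 22 fell, with a median log2 fold change of −2.17, and after length correction 1 rose and 13 fell, with a median of −0.56. Atp5e, a subunit of ATP synthase, had 199, 236 and 232 CPM in resistant nodules, against 3014 and 7929 CPM in vehicle nodules, a log2 fold change of −4.62 ± 0.51 (adjusted p = 6.5e-05). Cox7a2, of cytochrome c oxidase, had 93.7, 153 and 118 CPM in resistant nodules, against 1312 and 1579 CPM in vehicle nodules, a log2 fold change of −3.57 ± 0.33 (adjusted p = 5.9e-05). Ndufb5, of complex I, had 60.8, 66 and 66.4 CPM in resistant nodules, against 354 and 476 CPM in vehicle nodules, a log2 fold change of −2.69 ± 0.25 (adjusted p = 5.9e-05). The groups lay far apart in each of these genes. Corrected values were −1.43 for Rpl26 (adjusted p = 0.00089), −1.53 for Rps13 (adjusted p = 0.00089), −3.74 for Rpl34 (adjusted p = 0.00078), −1.84 for Atp5e (adjusted p = 0.0013), −1.59 for Cox7a2 (adjusted p = 0.00078) and −1.46 for Ndufb5 (adjusted p = 0.00034). Ribosomal protein genes have many processed pseudogenes, and the sources used here do not say how reads were shared among copies.

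Part of sterol synthesis fell by TMM-scaled counts, and the direction depended on the scaling. With TMM scaling the cholesterol genes summed to 430, 616 and 573 CPM in resistant nodules, below the 649 and 945 CPM of vehicle nodules. Without it they summed to 528, 652 and 576 CPM in resistant nodules, above the 439 and 511 CPM of vehicle nodules. The TPM fit called 9 cholesterol genes higher and 0 lower. Of 18 cholesterol synthesis genes 1 rose and 7 fell, with a median log2 fold change of −0.64 (0.76 from TPM), and after length correction 0 rose and 7 fell, with a median of −0.74. Mvd, of the mevalonate pathway, had 10.7, 12 and 17.6 CPM in resistant nodules, against 66.3 and 86.6 CPM in vehicle nodules, a log2 fold change of −2.51 ± 0.30 (adjusted p = 9.3e-05). Dhcr7, which completes cholesterol, had 15, 17.8 and 9.01 CPM in resistant nodules, against 28.8 and 129.6 CPM in vehicle nodules, a log2 fold change of −2.51 ± 0.48 (adjusted p = 0.0015). The groups were apart in both, and corrected values were −1.96 for Mvd (adjusted p = 0.00057) and −2.85 for Dhcr7 (adjusted p = 0.0021). Of 11 fatty acid synthesis genes 2 rose and 1 fell, with a median log2 fold change of 0.27, and after length correction 0 rose and 2 fell, with a median of −0.62. Of 21 glycolysis and hypoxia genes 3 rose and 2 fell, with a median log2 fold change of −0.08 (1.18 from TPM), and after length correction 4 rose and 3 fell, with a median of −0.10. Hk1, a hexokinase, had 92.3, 86.6 and 185 CPM in resistant nodules, against 36.9 and 30.3 CPM in vehicle nodules, a log2 fold change of 1.85 ± 0.33 (adjusted p = 0.0009). Pfkfb3, which makes the activator of phosphofructokinase, had 65.5, 79.1 and 38.3 CPM in resistant nodules, against 13.3 and 6.54 CPM in vehicle nodules, a log2 fold change of 2.61 ± 0.50 (adjusted p = 0.0015). Slc16a3, the lactate exporter MCT4, had 13.9, 6.85 and 6.33 CPM in resistant nodules, against 21.8 and 59.4 CPM in vehicle nodules, a log2 fold change of −2.16 ± 0.47 (adjusted p = 0.0033). Corrected, these were 1.26 for Hk1 (adjusted p = 0.0037), 1.67 for Pfkfb3 (adjusted p = 0.011) and −2.95 for Slc16a3 (adjusted p = 0.00095). Calls did not hold for Dhcr7 and Slc16a3 without vehicle 2 (adjusted p from 0.078 to 0.12). Under another setting there was no call for Mvd, Dhcr7 and Slc16a3 from TPM. Calls among cholesterol genes numbered 0 higher and 5 lower without resistant 3, and 0 higher and 3 lower without vehicle 2. Calls among glycolysis genes numbered 3 higher and 5 lower without resistant 3, and 3 higher and 0 lower without vehicle 2. Calls among fatty acid genes numbered 1 higher and 0 lower without resistant 1, 0 higher and 1 lower without resistant 2, and 0 without vehicle 1.

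**Figure D4:**
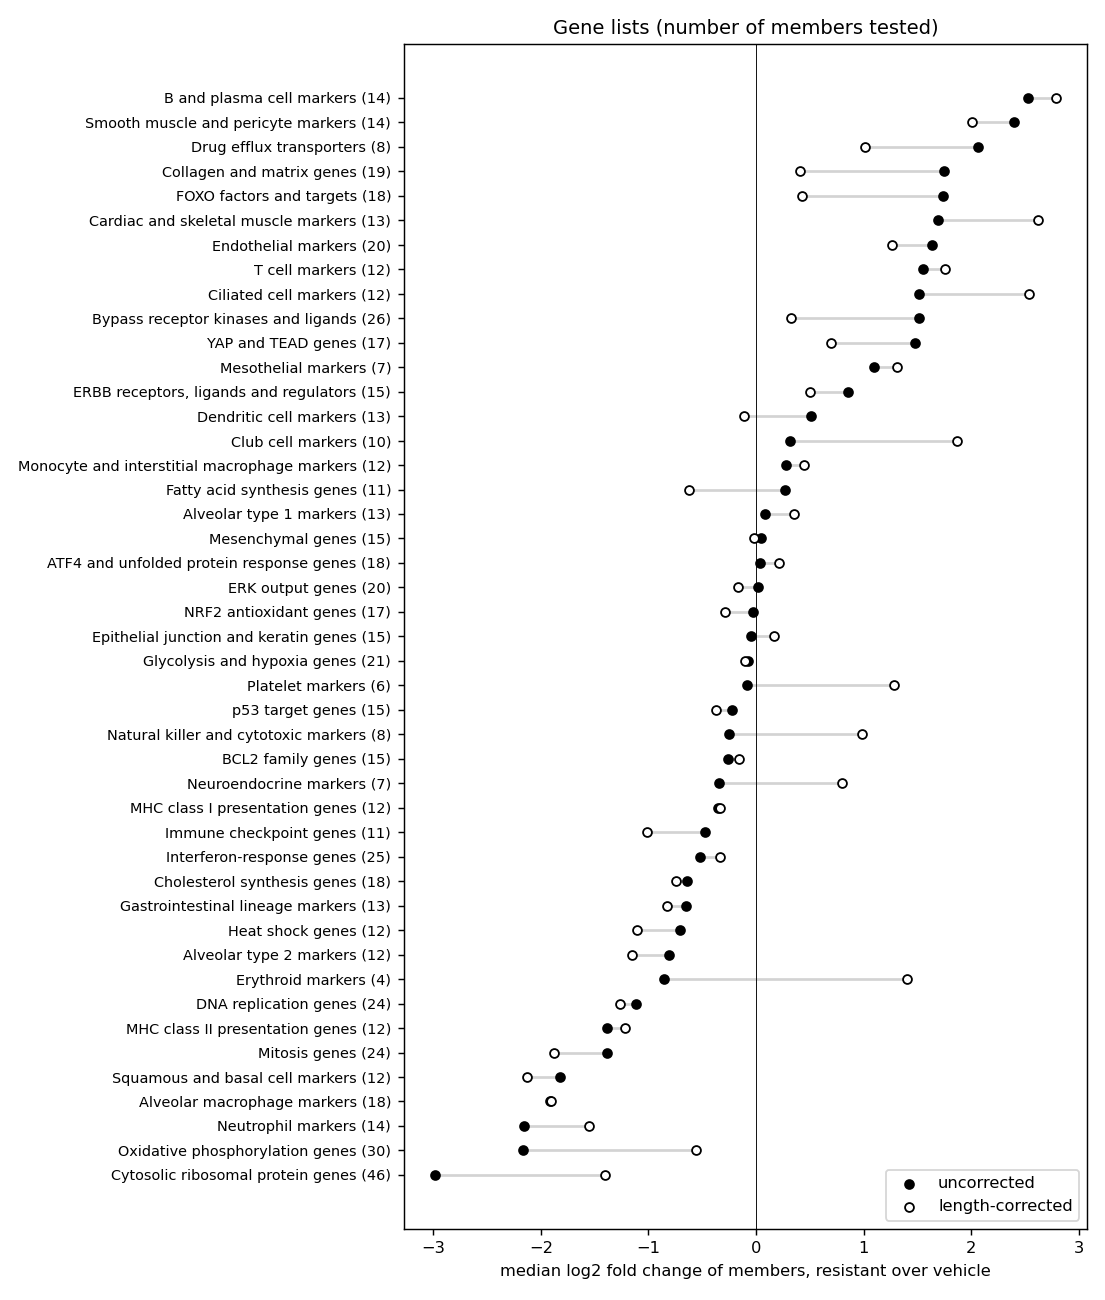
Median log2 fold change of resistant over vehicle for the tested members of each gene list, without (filled) and with (open) length correction; the number of members is in brackets. Ribosomal protein genes move from −2.99 to −1.40 and FOXO genes from 1.74 to 0.42 with the correction, while mitosis genes stay below 0 at −1.39 and −1.87.

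Lung epithelial markers differed by cell type. Of 12 alveolar type 2 markers 0 rose and 1 fell, with a median log2 fold change of −0.81 (0.14 from TPM), and after length correction 0 rose and 1 fell, with a median of −1.15. Sftpc, the surfactant protein of type 2 cells, had 5098, 24476 and 2871 CPM in resistant nodules, against 116690.5 and 185948 CPM in vehicle nodules, a log2 fold change of −3.81 ± 1.05 (adjusted p = 0.012), and all resistant libraries lay below the vehicle libraries. Of 13 alveolar type 1 markers 3 rose and 1 fell, with a median log2 fold change of 0.08 (1.67 from TPM) and −0.06 with upper-quartile scaling, and after length correction 2 rose and 1 fell, with a median of 0.35. Cav1, the caveolin of thin alveolar and endothelial cells, had 329, 344 and 219 CPM in resistant nodules, against 33.7 and 38.8 CPM in vehicle nodules, a log2 fold change of 3.04 ± 0.45 (adjusted p = 0.00029). Aqp5, a water channel, had 305, 263 and 1019 CPM in resistant nodules, against 1755 and 1719 CPM in vehicle nodules, a log2 fold change of −1.72 ± 0.51 (adjusted p = 0.017). Of 10 club cell markers 2 rose and 0 fell, with a median log2 fold change of 0.31, and after length correction 4 rose and 0 fell, with a median of 1.86. Cyp2f2, the cytochrome P450 of club cells, had 6752, 2903 and 5566 CPM in resistant nodules, against 228 and 212 CPM in vehicle nodules, a log2 fold change of 4.53 ± 0.82 (adjusted p = 0.0011). Scgb1a1, their secretoglobin with a very short transcript, had 15129, 13770.4 and 10811 CPM in resistant nodules, against 4108 and 12391 CPM in vehicle nodules, a log2 fold change of 0.68 ± 0.85 (adjusted p = 0.54), with overlap between groups. Of 12 ciliated cell markers 2 rose and 0 fell, with a median log2 fold change of 1.52, and after length correction 4 rose and 0 fell, with a median of 2.53. Dnah5, an axonemal dynein, had 33.9, 18.1 and 6.69 CPM in resistant nodules, against 1.08 and 0 CPM in vehicle nodules, a log2 fold change of 5.11 ± 1.47 (adjusted p = 0.015). Corrected, the values were −1.85 for Sftpc (adjusted p = 0.19), 3.02 for Cav1 (adjusted p = 0.00072), −1.45 for Aqp5 (adjusted p = 0.024), 4.81 for Cyp2f2 (adjusted p = 0.0014), 3.19 for Scgb1a1 (adjusted p = 0.027) and 3.26 for Dnah5 (adjusted p = 0.065). By leaving out 1 library, the call was lost for Sftpc and Dnah5 without vehicle 2 (adjusted p from 0.059 to 0.089) and for Aqp5 without resistant 1, vehicle 1 or vehicle 2 (adjusted p from 0.0545 to 0.087). Among the other settings, no call was made for Aqp5 from TPM or with only the 5 compared libraries in the fit, nor for Dnah5 by limma-voom. Calls among type 2 markers numbered 0 higher and 6 lower without resistant 2, and 0 without vehicle 2. Calls among type 1 markers numbered 2 higher and 0 lower without vehicle 1, and 2 higher and 0 lower without vehicle 2. Calls among club markers numbered 1 higher and 0 lower without vehicle 2. Calls among ciliated markers numbered 1 higher and 0 lower without resistant 1, 1 higher and 0 lower without resistant 2, and 0 without vehicle 2.

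Lineage switches described in resistant lung tumours were looked for by their markers. Among all genes tested 22.1% rose and 18.9% fell before length correction. With it 13.8% of the protein-coding genes rose and 17.8% fell. The shares of junction and mesenchymal genes that rose before correction were near that of all genes. Of 12 squamous and basal markers 1 rose and 4 fell, with a median log2 fold change of −1.82, and after length correction 1 rose and 2 fell, with a median of −2.13. Sox2, a factor of airway and squamous epithelium, rose, with 39.1, 25.9 and 60.8 CPM in resistant nodules, against 4.38 and 7.5 CPM in vehicle nodules, a log2 fold change of 2.82 ± 0.76 (adjusted p = 0.011). Ivl, the cornified envelope gene involucrin, fell, with 0.255, 3.2 and 3.76 CPM in resistant nodules, against 53.2 and 33.9 CPM in vehicle nodules, a log2 fold change of −4.19 ± 0.77 (adjusted p = 0.0012). Of 13 gastrointestinal lineage markers 1 rose and 3 fell, with a median log2 fold change of −0.65 (0.25 from TPM), and after length correction 0 rose and 1 fell, with a median of −0.83. Foxa3, a factor of gut endoderm, had 0.0728, 0.208 and 0.309 CPM in resistant nodules, against 3.36 and 3.19 CPM in vehicle nodules, a log2 fold change of −4.05 ± 1.05 (adjusted p = 0.0085). Of 7 neuroendocrine markers 0 rose and 0 fell, with a median log2 fold change of −0.35 (0.86 from TPM), and after length correction 0 rose and 0 fell, with a median of 0.80, and their summed level was 10.4, 9.26 and 6.02 CPM in resistant nodules, against 14.5 and 8.84 CPM in vehicle nodules, with overlap between groups (without TMM scaling 12.8, 9.79 and 6.05 CPM in resistant nodules, against 9.79 and 4.79 CPM in vehicle nodules); the members at 0 in every resistant library numbered 0 and in both vehicle libraries 1. Of 15 epithelial junction and keratin genes 4 rose and 0 fell, with a median log2 fold change of −0.05 (1.54 from TPM), and after length correction 0 rose and 0 fell, with a median of 0.17. Cdh1, which encodes E-cadherin, had 274, 449 and 662 CPM in resistant nodules, against 169 and 98.4 CPM in vehicle nodules, a log2 fold change of 1.79 ± 0.41 (adjusted p = 0.0042). Of 15 mesenchymal genes 4 rose and 0 fell, with a median log2 fold change of 0.05 (1.5 from TPM) and −0.10 with upper-quartile scaling, and after length correction 1 rose and 1 fell, with a median of −0.02. Zeb1, a repressor of epithelial genes that fibroblasts and endothelium also express, had 77.2, 79.7 and 26.1 CPM in resistant nodules, against 7.8 and 2.6 CPM in vehicle nodules, a log2 fold change of 3.54 ± 0.73 (adjusted p = 0.0023). Groups were apart in each of these named genes. Corrected values were 2.89 for Sox2 (adjusted p = 0.014), −3.95 for Ivl (adjusted p = 0.0026), −3.85 for Foxa3 (adjusted p = 0.016), 0.92 for Cdh1 (adjusted p = 0.068) and 2.34 for Zeb1 (adjusted p = 0.011). The call was lost for Sox2 without vehicle 1 (adjusted p = 0.075). Other settings gave no call for Sox2 by limma-voom. Calls among squamous markers numbered 1 higher and 1 lower without resistant 2, 1 higher and 2 lower without resistant 3, and 1 higher and 1 lower without vehicle 2. Calls among gastrointestinal markers numbered 1 higher and 1 lower without resistant 3, 0 higher and 2 lower without vehicle 1, and 1 higher and 1 lower without vehicle 2. The median of gastrointestinal markers turned to 2.01 without vehicle 1. Calls among junction genes numbered 1 higher and 5 lower without resistant 3, 2 higher and 0 lower without vehicle 1, and 1 higher and 0 lower without vehicle 2. Calls among mesenchymal genes numbered 2 higher and 0 lower without resistant 1, and 1 higher and 0 lower without vehicle 2. Calls among neuroendocrine markers numbered 1 higher and 0 lower without vehicle 1.

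Markers of vessel walls rose for the most part. As a background, 22.1% of all genes tested rose before length correction, and 54.2% of messenger RNAs over 5 kb. With the correction 13.8% of the protein-coding genes tested rose. Log2 fold changes of the endothelial markers ran from −3.10 to 4.19 before correction. Of 20 endothelial markers 12 rose and 2 fell, with a median log2 fold change of 1.64, and after length correction 13 rose and 0 fell, with a median of 1.26, and their summed level was 1814, 2284 and 1304 CPM in resistant nodules, against 970.3 and 1043 CPM in vehicle nodules. Cdh5, the VE-cadherin of endothelial junctions, had 138, 336 and 105 CPM in resistant nodules, against 11.2 and 9.96 CPM in vehicle nodules, a log2 fold change of 4.19 ± 0.63 (adjusted p = 0.00031). Erg, an endothelial ETS factor, had 80.5, 116 and 63 CPM in resistant nodules, against 7.02 and 4.31 CPM in vehicle nodules, a log2 fold change of 3.93 ± 0.67 (adjusted p = 0.0007). Of 14 smooth muscle and pericyte markers 11 rose and 0 fell, with a median log2 fold change of 2.40, and after length correction 8 rose and 1 fell, with a median of 2.01, with sums of 2492, 815 and 648 CPM in resistant nodules, against 343 and 438 CPM in vehicle nodules. Myh11 (chromosome 16, 14194535 to 14291372, minus strand, mm10), the smooth muscle myosin heavy chain, had 451, 78.8 and 51.2 CPM in resistant nodules, against 1.5 and 1.86 CPM in vehicle nodules, a log2 fold change of 6.85 ± 1.17 (adjusted p = 0.00075). Notch3, a receptor of pericytes, had 54.6, 40.8 and 67.2 CPM in resistant nodules, against 7.02 and 12.4 CPM in vehicle nodules, a log2 fold change of 2.48 ± 0.34 (adjusted p = 0.00018). Myocd, the coactivator of smooth muscle genes, had 2.33, 1.91 and 0.772 CPM in resistant nodules, against 0 and 0 CPM in vehicle nodules, and with no count in either vehicle library its level was at least 17.7-fold higher, taking 3 counts over the vehicle group as the floor (adjusted p = 0.0038). Of 19 collagen and matrix genes 8 rose and 0 fell, with a median log2 fold change of 1.74, and after length correction 2 rose and 2 fell, with a median of 0.41. Eln, encoding elastin, had 709.5, 267 and 279.7 CPM in resistant nodules, against 64.9 and 53.6 CPM in vehicle nodules, a log2 fold change of 2.82 ± 0.59 (adjusted p = 0.0025). Col1a1, of fibrillar collagen, had 973, 80.9 and 93.5 CPM in resistant nodules, against 47.7 and 33.6 CPM in vehicle nodules, a log2 fold change of 3.23 ± 0.96 (adjusted p = 0.017), and resistant 1 was far above the other resistant libraries. Corrected values were 3.51 for Cdh5 (adjusted p = 0.0015), 3.48 for Erg (adjusted p = 0.0024), 5.43 for Myh11 (adjusted p = 0.0032), 0.92 for Notch3 (adjusted p = 0.022), 2.25 for Eln (adjusted p = 0.0077) and 1.92 for Col1a1 (adjusted p = 0.093). Of 13 cardiac and skeletal muscle markers 0 rose and 0 fell, yet their sums were 59.7, 476 and 553 CPM in resistant nodules, against 123 and 29 CPM in vehicle nodules, and Myh6, the atrial myosin, had 0.146, 149 and 217 CPM in resistant nodules, against 7.5 and 1.34 CPM in vehicle nodules. Of 7 mesothelial markers 0 rose and 0 fell, with sums of 871, 136 and 707 CPM in resistant nodules, against 149 and 399 CPM in vehicle nodules. The part that tissue around the nodules plays in these values was not tested. Calls did not hold for Col1a1 without vehicle 1 or vehicle 2 (adjusted p from 0.064 to 0.12). No call was made for Col1a1 with only the 5 compared libraries in the fit. Calls among smooth muscle markers numbered 7 higher and 0 lower without resistant 1, 7 higher and 0 lower without vehicle 1, and 5 higher and 0 lower without vehicle 2. Calls among matrix genes numbered 5 higher and 0 lower without resistant 1, 14 higher and 0 lower without resistant 3, 5 higher and 0 lower without vehicle 1, and 1 higher and 0 lower without vehicle 2. Calls among mesothelial markers numbered 1 higher and 0 lower without resistant 3, and 1 higher and 0 lower without vehicle 1.

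Markers of alveolar macrophages and granulocytes that passed fell in resistant nodules. Of 18 alveolar macrophage markers 0 rose and 9 fell, with a median log2 fold change of −1.92, and after length correction 0 rose and 10 fell, with a median of −1.91, with summed levels of 828, 2741 and 751 CPM in resistant nodules, against 11564 and 12300.0 CPM in vehicle nodules. Ctsk, a cathepsin, had 77.7, 60.4 and 23.7 CPM in resistant nodules, against 354 and 1349.6 CPM in vehicle nodules, a log2 fold change of −3.98 ± 0.66 (adjusted p = 0.00058). Fabp5, a fatty acid binding protein, had 39.4, 107 and 29.1 CPM in resistant nodules, against 616 and 788 CPM in vehicle nodules, a log2 fold change of −3.58 ± 0.55 (adjusted p = 0.00037). Of 14 neutrophil markers 0 rose and 9 fell, with a median log2 fold change of −2.15, and after length correction 0 rose and 4 fell, with a median of −1.55. S100a8, a calprotectin subunit of neutrophils, had 7.6, 20.6 and 2.78 CPM in resistant nodules, against 194 and 349.9 CPM in vehicle nodules, a log2 fold change of −4.72 ± 0.92 (adjusted p = 0.0017). Cd177, a neutrophil surface protein, had 27.6, 49.5 and 6.95 CPM in resistant nodules, against 741 and 375 CPM in vehicle nodules, a log2 fold change of −4.31 ± 1.03 (adjusted p = 0.0057). All vehicle values lay above all resistant values in these genes. The summed neutrophil list was 9196, 26229 and 83329 CPM in resistant nodules, against 2388 and 9590.3 CPM in vehicle nodules, with overlap between groups, and most of that sum in resistant libraries was Ltf. Ltf, the iron-binding lactoferrin of neutrophil granules and secretory epithelium, was singled out after its values were seen and had 9107, 26078 and 83303 CPM in resistant nodules, against 1139 and 8571 CPM in vehicle nodules, a log2 fold change of 3.02 ± 1.21 (adjusted p = 0.062). Of 13 dendritic cell markers 1 rose and 2 fell, with a median log2 fold change of 0.51, and after length correction 0 rose and 2 fell, with a median of −0.11. Batf3, the factor of cross-presenting dendritic cells, had 2.11, 0.581 and 1.03 CPM in resistant nodules, against 15.7 and 17.7 CPM in vehicle nodules, a log2 fold change of −3.74 ± 0.60 (adjusted p = 0.00049), while Zbtb46, a dendritic lineage factor, had 9.17, 12.7 and 5.46 CPM in resistant nodules, against 1.92 and 0 CPM in vehicle nodules, a log2 fold change of 3.21 ± 1.01 (adjusted p = 0.022). Of 12 monocyte and interstitial macrophage markers 0 rose and 1 fell, with a median log2 fold change of 0.28, and after length correction 2 rose and 0 fell, with a median of 0.44. Pf4, the platelet factor 4 of megakaryocytes and some macrophages, had 18.2, 38.2 and 4.63 CPM in resistant nodules, against 624 and 788 CPM in vehicle nodules, a log2 fold change of −5.12 ± 0.93 (adjusted p = 0.0011). Corrected values were −3.37 for Ctsk (adjusted p = 0.0032), −2.26 for Fabp5 (adjusted p = 0.0054), −2.38 for S100a8 (adjusted p = 0.02), −4.35 for Cd177 (adjusted p = 0.009), −2.11 for Batf3 (adjusted p = 0.007), 2.13 for Zbtb46 (adjusted p = 0.076) and −3.07 for Pf4 (adjusted p = 0.013). Under another setting there was no call for Zbtb46 with only the 5 compared libraries in the fit. Calls among alveolar macrophage markers numbered 0 higher and 14 lower without resistant 2. Calls among neutrophil markers numbered 0 higher and 5 lower without vehicle 2. The median of dendritic cell markers turned to −0.51 without resistant 1. Calls among monocyte markers numbered 0 higher and 4 lower without resistant 1, 1 higher and 1 lower without resistant 2, 2 higher and 1 lower without resistant 3, 0 without vehicle 1, and 0 without vehicle 2.

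**Figure D5:**
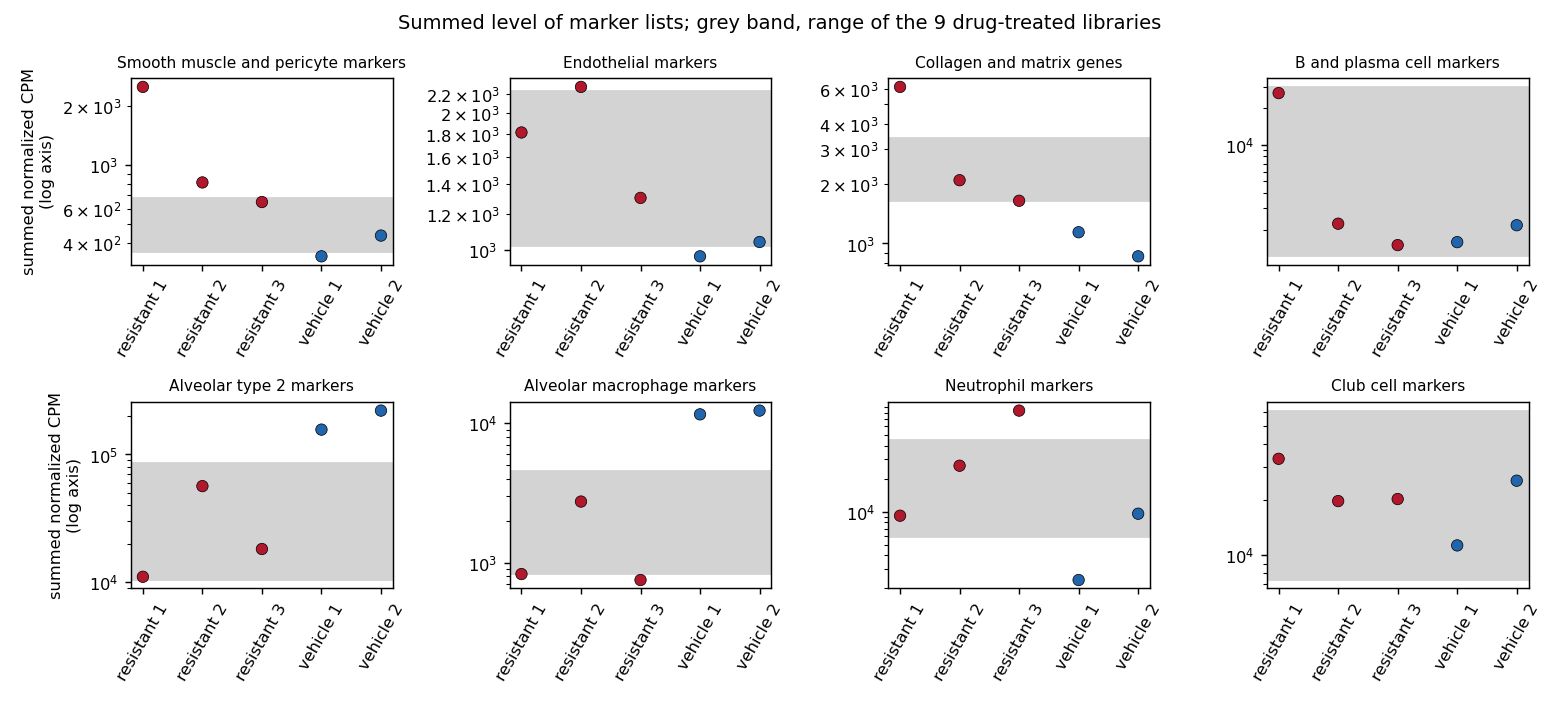
Summed normalized CPM of 8 marker lists (log axis) in the 3 resistant and 2 vehicle libraries; the grey band spans the 9 drug-treated libraries. Endothelial, smooth muscle and collagen sums lie above both vehicle libraries in all resistant libraries and alveolar macrophage sums below, while the plasma cell sum is high in resistant 1.

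T cell and cytotoxic markers were low in all 5 libraries, and few passed. Before length correction 22.1% of all genes tested rose and 18.9% fell. The share of interferon genes that fell was near that of all genes. Of 12 T cell markers 2 rose and 0 fell, with a median log2 fold change of 1.55, and after length correction 1 rose and 0 fell, with a median of 1.76. Cd4, the helper T cell coreceptor, had 23.5, 5.19 and 3.14 CPM in resistant nodules, against 0.24 and 0 CPM in vehicle nodules, a log2 fold change of 6.32 ± 1.61 (adjusted p = 0.0078). Cd8a, of cytotoxic T cells, had 2, 0.747 and 0.0515 CPM in resistant nodules, against 0.42 and 0 CPM in vehicle nodules, a log2 fold change of 2.08 ± 1.33 (adjusted p = 0.22). Of 8 natural killer and cytotoxic markers 1 rose and 0 fell. Of 14 B and plasma cell markers 1 rose and 0 fell, with a median log2 fold change of 2.53, and after length correction 0 rose and 1 fell, with a median of 2.79, and the sums were 26521, 2244 and 1497 CPM in resistant nodules, against 1583 and 2179.7 CPM in vehicle nodules. Of 11 immune checkpoint genes 1 rose and 3 fell, with a median log2 fold change of −0.48 (0.57 from TPM), and after length correction 1 rose and 3 fell, with a median of −1.02. Tigit, an inhibitory receptor of T and natural killer cells, had 7.97, 4.32 and 21 CPM in resistant nodules, against 0 and 0.223 CPM in vehicle nodules, and on 732 resistant against 3 vehicle counts the ratio of levels was 104 (exact 95% interval 35.3 to 504, counting error only; adjusted p = 0.00095). Resistant 3, the highest in Tigit, had the lowest T cell marker sum of the resistant libraries. The T cell sums were 183, 62.8 and 26.6 CPM in resistant nodules, against 34.5 and 56.9 CPM in vehicle nodules. Which cells held the Tigit RNA was not tested. Cd274, which encodes PD-L1, had 7.86, 18.9 and 5.2 CPM in resistant nodules, against 24 and 43 CPM in vehicle nodules. Its log2 fold change was −1.65 ± 0.51 (adjusted p = 0.02). Of 25 interferon-response genes 3 rose and 5 fell, with a median log2 fold change of −0.52 (1.02 from TPM), and after length correction 1 rose and 3 fell, with a median of −0.33. Isg15, a ubiquitin-like protein, had 7.06, 5.98 and 6.43 CPM in resistant nodules, against 17.4 and 56 CPM in vehicle nodules. Its log2 fold change was −2.5 ± 0.65 (adjusted p = 0.009). The interferon genes that rose were Oas3, Ddx58 and Oasl2, with log2 fold changes of 2.88, 1.76 and 1.61. Of 12 MHC class I presentation genes 1 rose and 3 fell, with a median log2 fold change of −0.36 (1.42 from TPM), and after length correction 0 rose and 3 fell, with a median of −0.34. Psmb8, of the immunoproteasome, had 103, 86.5 and 76 CPM in resistant nodules, against 215 and 427 CPM in vehicle nodules, a log2 fold change of −1.86 ± 0.37 (adjusted p = 0.0018). Of 12 MHC class II presentation genes 0 rose and 5 fell, with a median log2 fold change of −1.38 (0.23 from TPM), and after length correction 0 rose and 1 fell, with a median of −1.22. H2-DMb1, which loads peptides on class II, had 19.8, 47.6 and 20.6 CPM in resistant nodules, against 138 and 221 CPM in vehicle nodules, a log2 fold change of −2.61 ± 0.59 (adjusted p = 0.004). Corrected values were 5.93 for Cd4 (adjusted p = 0.014), −2.31 for Cd274 (adjusted p = 0.0029), −0.61 for Isg15 (adjusted p = 0.44), −1.19 for Psmb8 (adjusted p = 0.029) and −1.68 for H2-DMb1 (adjusted p = 0.044). By leaving out 1 library, the call was lost for Cd4, Isg15 and Psmb8 without vehicle 2 (adjusted p from 0.0546 to 0.2) and for Cd274 without resistant 1, resistant 3 or vehicle 2 (adjusted p from 0.0524 to 0.19). Among the other settings, no call was made for Cd4 by limma-voom, Cd274 with only the 5 compared libraries in the fit, nor for Isg15 and H2-DMb1 from TPM. On the TPM scale the sign turned, to 0.06 for Cd274 and 0.42 for Psmb8. Calls among T cell markers numbered 1 higher and 0 lower without resistant 1, 4 higher and 0 lower without resistant 3, 1 higher and 0 lower without vehicle 1, and 0 without vehicle 2. Calls among interferon genes numbered 0 without vehicle 2. The median of interferon genes turned to 0.04 without vehicle 1. Calls among class I genes numbered 0 higher and 2 lower without resistant 2, and 0 without vehicle 2. Calls among checkpoint genes numbered 2 higher and 1 lower without resistant 3, and 1 higher and 0 lower without vehicle 2. The median of checkpoint genes turned to 0.42 without vehicle 2. Calls among natural killer markers numbered 1 higher and 1 lower without resistant 1, 0 without resistant 2, and 0 higher and 1 lower without vehicle 1. Calls among B and plasma cell markers numbered 1 higher and 2 lower without resistant 1, 1 higher and 1 lower without resistant 3, 0 without vehicle 1, and 0 without vehicle 2. The median of B and plasma cell markers was 0.16 without resistant 1.

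The largest changes over the autosomes were read from protein-coding genes called without overlap between groups and with a mean log2 CPM of at least 1 over the 5 libraries. At the high end, after Myh11, were Cyyr1, Ogn, Plagl1, Gpa33, Doc2b, Pdpr, Zbtb16, Rsph4a and Dnah5, with log2 fold changes from 5.11 to 5.97. Zbtb16, the factor PLZF, which glucocorticoids induce in several tissues, had 77.9, 98.1 and 65.8 CPM in resistant nodules, against 0.54 and 3.27 CPM in vehicle nodules, a log2 fold change of 5.43 ± 1.10 (adjusted p = 0.0022). Plagl1, an imprinted zinc finger gene, had 7.68, 28.5 and 19.1 CPM in resistant nodules, against 0.72 and 0 CPM in vehicle nodules, a log2 fold change of 5.60 ± 1.08 (adjusted p = 0.0016). Vehicle libraries held very few counts of either. Ogn, the matrix proteoglycan osteoglycin, had 83.2, 118 and 3.5 CPM in resistant nodules, against 2.1 and 0.0743 CPM in vehicle nodules, a log2 fold change of 5.93 ± 1.54 (adjusted p = 0.009). Gpa33, an antigen of intestinal epithelium, had 9.64, 36.2 and 197 CPM in resistant nodules, against 0.54 and 2.9 CPM in vehicle nodules, a log2 fold change of 5.58 ± 1.66 (adjusted p = 0.018). At the low end were Cxcl3, Wfdc17, Saa3, Ceacam10, Cela1, Rpl34, Mgam, Ccl17, Hal and Tff2, with log2 fold changes from −7.18 to −5.65. Cxcl3, a chemokine that attracts neutrophils, had 0.109, 0.706 and 0.257 CPM in resistant nodules, against 79.3 and 25.6 CPM in vehicle nodules, a log2 fold change of −7.18 ± 1.06 (adjusted p = 0.00028). Wfdc17, a protein of activated macrophages, had 16.2, 24.5 and 6.02 CPM in resistant nodules, against 936 and 3379 CPM in vehicle nodules, a log2 fold change of −7.11 ± 0.73 (adjusted p = 5.9e-05). The resistant values were close to 0 for Cxcl3. Saa3, an acute phase protein, had 2.44, 5.69 and 4.48 CPM in resistant nodules, against 43.3 and 910.0 CPM in vehicle nodules, a log2 fold change of −6.83 ± 1.11 (adjusted p = 0.00058). Ccl17, a chemokine of dendritic cells, had 7.57, 13.4 and 4.22 CPM in resistant nodules, against 798 and 142 CPM in vehicle nodules, a log2 fold change of −5.81 ± 0.70 (adjusted p = 9.6e-05). Mmp12, the macrophage elastase, was among the lowest after length correction and had 24.8, 39.7 and 3.5 CPM in resistant nodules, against 602 and 543 CPM in vehicle nodules, a log2 fold change of −4.66 ± 0.80 (adjusted p = 0.00075). The corrected log2 fold changes were 4.34 for Zbtb16 (adjusted p = 0.0088), 4.54 for Plagl1 (adjusted p = 0.004), 6.09 for Ogn (adjusted p = 0.0048), 5.38 for Gpa33 (adjusted p = 0.024), −5.82 for Cxcl3 (adjusted p = 0.0012), −4.71 for Wfdc17 (adjusted p = 0.00025), −4.43 for Saa3 (adjusted p = 0.0042), −3.69 for Ccl17 (adjusted p = 0.0026) and −5.14 for Mmp12 (adjusted p = 0.00057). The call was lost for Ogn, Rsph4a and Dnah5 without vehicle 2 (adjusted p from 0.067 to 0.091), for Gpa33 without resistant 3, vehicle 1 or vehicle 2 (adjusted p from 0.0532 to 0.1), for Hal without resistant 1, resistant 2, resistant 3 or vehicle 2 (adjusted p from 0.0527 to 0.57) and for Tff2 without resistant 2, resistant 3, vehicle 1 or vehicle 2 (adjusted p from 0.0513 to 0.089). Other settings gave no call for Ogn, Gpa33, Rsph4a, Dnah5 and Hal by limma-voom, Gpa33, Hal and Tff2 with every counted gene kept, nor for Tff2 from TPM. Without vehicle 2 the log2 fold change of Hal was −1.55. With length correction Tff2 was not called, at −3.58 (adjusted p = 0.12).

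The 3 resistant libraries were unlike each other in the RNA levels of cell type markers. Resistant 1 was high in marker RNA of stroma and plasma cells. Myh11 had 451 CPM there, against 78.8 and 51.2 CPM in the other resistant libraries. Resistant 2 had the most alveolar type 2 and alveolar macrophage RNA of the 3, with the type 2 markers summing to 56511 CPM there, against 10993 CPM in resistant 1 and 18150.0 CPM in resistant 3. Resistant 3 was the highest in Erbb2, Erbb3, Abcc3 and Abcc4 and the lowest of the 3 in summed alveolar macrophage and T cell markers. Of 3674 protein-coding genes with at least 50 CPM on average in resistant nodules, 14 spanned more than 16-fold among the 3 libraries on the log2(CPM + 0.5) scale. The 60 with the widest span were highest in resistant 1 for 26 genes, in resistant 2 for 17 and in resistant 3 for 17. Dusp6, Cdc20, Foxo3 and Yap1 spanned little beside these, and Yap1 had 125, 121 and 130.2 CPM in resistant nodules, against 49.8 and 40.1 CPM in vehicle nodules.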

How the data were processed

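Total RNA of snap-frozen mouse lung tumour nodules was sequenced on Illumina libraries. The authors deposited a table of read counts per gene symbol for all 14 libraries, and a table of TPM, which divides by transcript length and scales every library to 1 total. The submitters' processing notes name the tools STAR and RSEM and the build mm10; roles, versions and any use of strand are not stated. Group came from the treatment label. Replicate numbers follow accession order and pair nothing. No label says that libraries came from separate animals, so p-values measure the spread between libraries only. The replicates of a group differed by far more than sampling noise and none were identical.

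The deposited counts were tested with edgeR 4.0.16 (R 4.3.3): filterByExpr by group, TMM factors, a robust quasi-likelihood fit of group means over all 14 libraries (9 residual degrees of freedom) and Benjamini-Hochberg adjustment over 17933 genes, of which the 16989 autosomal ones are reported; a call is an adjusted p below 0.05. TMM factors were 1.0 to 1.23 for resistant and 0.542 and 0.677 for vehicle libraries. Chromosomes, lengths and gene types came from GENCODE M21 (mm10); 53186 of 55291 symbols matched 1 gene. Length classes use the longest annotated transcript. The length-corrected fit removed, per library, a robust spline (5 degrees of freedom) of log2 CPM on length and base composition of the APPRIS principal transcript, chosen over the longest transcript after the latter had been seen. The scripts were tested on simulated data.

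The comparison, its members and the gene lists were chosen with earlier results of these data known. Named genes follow a rule: the 10 highest and lowest fold changes among protein-coding genes called without overlap and with a mean log2 CPM of at least 1, the 6 highest and lowest after length correction, up to 4 called members per list (the 2 with the smallest p where none passed), and a fixed panel; the text gives most of them, and some that the rule names are not reported here. Nkx2-1, Ltf and the genes of the closing section were added after their values were seen. Alternatives were upper-quartile and RLE factors, other filters, limma-voom (limma 3.58.1), DESeq2 1.42.0, limma on log2(TPM + 1), the compared groups alone, a 1.5-fold threshold, and each library left out. Overlapping and antisense genes cannot be told apart without strand. Floors and exact intervals cover counting error only.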

Additional observations from a re-analysis of the deposited data

How the results depend on the processing

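Counts of autosomal genes called stayed within 1.5 times of the 6972 reported under DESeq2, voom, RLE or upper-quartile factors, both other filters and a 1.5-fold threshold, and with autosomal genes alone in the fit. Fitting only the 5 compared libraries gave 3180 calls (1580 higher, 1600 lower), and the length-corrected fit 4550 (1989 higher). Correcting on the longest transcript, an alternative added after the data were seen, gave 2100 higher. From TPM, 8821 were higher and 691 lower. With 1 library left out the calls lay between 4368 and 6966, with 2328 and 3914 higher and 2040 and 3186 lower. Against the drug groups DESeq2 called 180, and leaving out 1 library gave between 0 and 11 calls by edgeR. On the TPM scale the sign turned for Atf4 (0.46), Axl (0.96), Bax (0.088), Cd274 (0.064), Dnaja1 (1.97), Dnajb1 (0.87), Dusp6 (0.0065), Fdps (0.016), Hbb-bs (0.64), Hbb-bt (0.20), Ifi30 (0.17), Mki67 (0.72), Mthfd2 (0.12), Myc (1.12), Psmb8 (0.42) and Tyms (0.43). With length correction it turned for Acaca (−0.47), Ccnd1 (−0.21), Erap1 (−0.13), Hbb-bs (0.92), Hbb-bt (0.49), Met (−0.36) and Myc (0.64), with a median of −0.0056 for messenger RNAs of 3 to 5 kb, and on the longest transcript for Acaca (−0.42), Ccnd1 (−0.027), Erap1 (−0.019), Hbb-bs (1.04), Hbb-bt (0.59) and Met (−0.28). With 1 library left out the log2 fold change ran from −0.28 to 0.93 for Ccnd1, −0.56 to 4.22 for Ighm, −0.77 to 0.16 for Mki67 and −0.98 to 0.053 for Myc. List medians minus that of all genes turned from TPM for Heat shock genes (0.23), MHC class I presentation genes (0.15), T cell markers (−0.25) and B and plasma cell markers (−0.40), and with 1 library left out ran from −1.76 to 1.54 for Gastrointestinal lineage markers, −1.60 to 0.15 for Immune checkpoint genes and −0.028 to 1.78 for T cell markers. The cause of these shifts was not tested. Of 3126 values of single genes under another setting, 2714 kept direction and side of the threshold, and 214 of 810 counts of list members called moved by more than 1.5 times. No paired analysis was possible because the labels give no replicate numbers that groups share. With 2 vehicle libraries, and animals per library not stated, the spread behind each p-value may be technical.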

Other observations

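Secreted epithelial proteins and antibody genes varied widely among the 3 resistant nodules. The genes below were chosen for this spread after their values were seen, and of them edgeR called Lcn2 between groups and no other. Reg3g, an antibacterial lectin of airway and gut epithelium, had 1847, 164 and 28.5 CPM in resistant nodules, against 961 and 741 CPM in vehicle nodules. Bpifb1, a secreted protein of the airway, had 763, 34.5 and 34.3 CPM in resistant nodules, against 167 and 405 CPM in vehicle nodules. Resistant 1 was the highest of its group in both. Clu, encoding the chaperone clusterin, had 5012, 3123 and 32126 CPM in resistant nodules, against 2683 and 5342 CPM in vehicle nodules, with resistant 3 above all other libraries. Jchain, the joining chain of polymeric antibodies, had 1176, 316 and 15.3 CPM in resistant nodules, against 95.9 and 109.8 CPM in vehicle nodules. Ighm, the constant region of IgM, had 14175, 480.2 and 45.9 CPM in resistant nodules, against 349.5 and 434 CPM in vehicle nodules, and Igkc, of the kappa light chain, had 10647, 1099 and 85.5 CPM in resistant nodules, against 211 and 714 CPM in vehicle nodules. Antibody genes thus were highest in resistant 1 and lowest of the resistant libraries in resistant 3.

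Lamp3, a membrane protein of type 2 cells and mature dendritic cells, had 62.2, 1765 and 52.3 CPM in resistant nodules, against 1018 and 509 CPM in vehicle nodules. Lcn2, the iron-sequestering lipocalin of inflamed epithelium, had 158, 866 and 90.8 CPM in resistant nodules, against 2098 and 3241 CPM in vehicle nodules, a log2 fold change of −2.84 (adjusted p = 0.022); the call was lost with length correction (log2 fold change −1.15, adjusted p = 0.35), from TPM, with every counted gene kept, with only the 5 compared libraries in the fit, and without resistant 1, resistant 3 or vehicle 2 (adjusted p from 0.0539 to 0.11). In both, resistant 2 lay nearest to the vehicle libraries or above them. Krt20, a keratin of gut epithelium, had 63.7, 61.2 and 919.5 CPM in resistant nodules, against 11 and 131 CPM in vehicle nodules. Myh6, the atrial myosin, had 0.146, 149 and 217 CPM in resistant nodules, against 7.5 and 1.34 CPM in vehicle nodules, so that 2 of the 3 resistant libraries held RNA of a cardiac muscle gene that was close to 0 in the other.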
